A study of Mus musculus with 12 samples.

Results

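Genes of the translation initiation factors were followed through 4 populations of early blood cell progenitors sorted from mouse bone marrow. The members were chosen by name: every probe set with a single annotated symbol that begins with Eif and a digit from 1 to 6 was taken. Each gene was then read from the probe set that varied most over the arrays. This gave 47 genes of the 18193 measured, covered by 133 probe sets, and 37 of the 47 genes had more than 1 probe set. A choice by variation favours probe sets that differ between arrays, whatever the direction, so the other probe sets of a called gene are given beside it where it has any.

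RNA was hybridised to 12 Affymetrix mouse arrays, 3 per population, to learn how early haematopoietic progenitors differ in gene expression. All cells came from female C57BL/6 mice aged 4 to 6 weeks and were sorted as lineage-negative, CD117+ and Sca-1-. CD27+ common myeloid progenitors (CD27+ CMP) were CD34+, CD16/32- and CD27+, and CD27- common myeloid progenitors (CD27- CMP) were CD34+, CD16/32- and CD27-. Granulocyte-monocyte progenitors (GMP) were CD34+, CD16/32+ and CD27+. Megakaryocyte-erythrocyte progenitors (MEP) were CD34-, CD16/32- and CD27-. The RNA of each population came from 80000 cells. The labels speak of biological replicates without saying whether animals or pools were separate, so the p-values measure only the spread between these arrays.

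Translation of most mRNAs starts when eIF4E binds the cap, the scaffold eIF4G bridges it to the helicase eIF4A, and eIF3 brings in the small ribosomal subunit. That subunit carries the initiator tRNA on eIF2 bound to GTP. After each round eIF2 must be recharged with GTP by the exchange factor eIF2B, and kinases that phosphorylate eIF2 block this step and start the integrated stress response. The 4E-binding proteins hold eIF4E away from eIF4G until the kinase complex mTORC1 phosphorylates them. In red cell precursors, the eIF2 kinase HRI is known for matching globin synthesis to the supply of haem.

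The promoters of 4 genes that were lower in CD27+ CMP than in CD27- CMP and in GMP than in MEP are shown first: 2 subunits of eIF2B, the eIF3 subunit gene Eif3d and the helicase cofactor gene Eif4b. Each run holds the 250 bases before the first base of the gene in RefSeq on GRCm38.p6, read 5′ to 3′ on the strand of the gene. Capitals mark the letters CCGGAA or their reverse complement TTCCGG, a form of the site that ETS family transcription factors bind. Other forms of that site were not searched or marked.
Eif2b1, chr5:124579132-124579381, minus strand: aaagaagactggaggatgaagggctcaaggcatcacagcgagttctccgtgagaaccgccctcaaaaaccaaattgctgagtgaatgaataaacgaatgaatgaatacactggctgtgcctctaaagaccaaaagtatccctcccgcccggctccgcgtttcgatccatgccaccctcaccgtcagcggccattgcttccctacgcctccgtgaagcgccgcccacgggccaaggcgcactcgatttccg
Eif2b4, chr5:31193140-31193389, minus strand: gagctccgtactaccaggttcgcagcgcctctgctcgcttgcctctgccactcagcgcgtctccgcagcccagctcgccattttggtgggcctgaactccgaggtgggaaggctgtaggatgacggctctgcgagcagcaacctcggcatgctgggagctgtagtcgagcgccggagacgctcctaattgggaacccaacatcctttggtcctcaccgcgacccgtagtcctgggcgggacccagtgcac
Eif3d, chr15:77970825-77971074, minus strand: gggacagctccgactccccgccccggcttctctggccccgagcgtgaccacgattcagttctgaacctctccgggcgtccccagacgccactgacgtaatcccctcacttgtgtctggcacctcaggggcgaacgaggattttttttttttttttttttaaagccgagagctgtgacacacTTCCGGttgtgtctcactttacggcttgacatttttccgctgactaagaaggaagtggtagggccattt
Eif4b, chr15:102073523-102073772, plus strand: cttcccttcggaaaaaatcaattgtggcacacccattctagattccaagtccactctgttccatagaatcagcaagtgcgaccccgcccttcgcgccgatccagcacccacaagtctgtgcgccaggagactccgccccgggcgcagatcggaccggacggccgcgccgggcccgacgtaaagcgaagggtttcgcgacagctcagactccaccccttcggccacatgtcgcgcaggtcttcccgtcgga

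RefSeq gave a promoter for 38 of the 47 genes, and 3 motifs were searched on both strands of the 250 bases before the first transcript start it lists for each gene. In 28 of the 38 this window adjoins the outermost start of the gene, and in 10 it does not. CCGGAA was found in 14 of the 38 promoters (36.8%), against 12.2% of the 27025 promoters of all genes. The match of Eif3d begins 69 bases before the start, and the printed promoters of Eif2b1, Eif2b4 and Eif4b hold 0 matches. AGATAA, a site of the GATA factors, was found in 1 of 38 promoters (2.63%), against 10.3% of all promoters. The E-box CACGTG was found in 6 of 38 promoters (15.8%), against 6.05% of all promoters. A match describes letters in this window and says nothing about binding.

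The deposited values are log2 signals from which the median of the 12 arrays had been taken for each probe set. A value of 0 is therefore the middle array for that probe set, and levels cannot be compared between genes. In bulk samples, fewer cells of a type and less RNA per cell cannot be told apart. Array medians over all probe sets ran from -0.0267 to 0.0549. The third CD27- CMP array stood apart, with a mean correlation of 0.627 to the other arrays of its population, and counts of initiation factor genes without it are given beside those that rest on it.

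Cd27 followed the sort, with means of 4.10 in CD27+ CMP, -2.75 in CD27- CMP, 2.68 in GMP and -3.05 in MEP. The other genes of the gate did not all follow it between the CMP fractions, both of which were sorted as CD34+ and CD16/32-. Cd34 averaged 4.10 in CD27+ CMP and -3.22 in CD27- CMP, a difference of 7.32 log2 (adjusted p = 5.1e-05), against means of 3.03 in GMP and -4.91 in MEP. The CD16/32 genes Fcgr3 and Fcgr2b were higher in CD27+ CMP than in CD27- CMP by 4.71 and 6.68 log2, and both were also higher in GMP than in MEP. For Cd34, Fcgr3 and Fcgr2b the CD27- CMP mean thus lay nearer to MEP than to CD27+ CMP, although CD27- CMP were sorted as CD34+. The sort reads surface protein, while these values are RNA relative to the median array, so they do not test the sort labels. Kit, the gene of CD117, was not called in either comparison. Of 6 erythroid markers, 5 were lower in CD27+ CMP than in CD27- CMP and 5 were lower in GMP than in MEP. The mean of these markers lay between -4.29 and -2.88 in CD27+ CMP, between 2.34 and 2.47 in CD27- CMP, between -4.94 and -2.48 in GMP and between 2.63 and 2.81 in MEP. All 6 granulocyte-monocyte markers were higher in CD27+ CMP and in GMP, with means of 2.88 to 3.43 in CD27+ CMP, -3.26 to -2.62 in CD27- CMP, 3.04 to 3.71 in GMP and -4.53 to -3.15 in MEP. Of 5 megakaryocyte markers, 2 (Gp5 and Vwf) were lower in CD27+ CMP and in GMP. Of the mature T and NK cell markers, 0 of 5 differed in either comparison, against 1 of 3 mature B cell markers (Cd79b, higher in CD27+ CMP and GMP) and 1 of 6 stromal and endothelial markers (Pecam1, higher in both). These marker levels move with every initiation factor difference described here between populations sorted with and without CD27, and their part in those differences was not tested.

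Between CD27+ CMP and CD27- CMP, 12 of the 47 initiation factor genes differed at an adjusted p under 0.05. Higher in CD27+ CMP were Eif4e3, a cap-binding protein, Eif5a2, Eif4g3 and Eif1ad. Lower were Eif4ebp1, the inhibitor of eIF4E, 3 of the 5 subunits of eIF2B (Eif2b1, Eif2b3 and Eif2b4), Eif2d, Eif3d, Eif4b and Eif4enif1. The share called was 25.5%, against 22.4% of all 18193 genes, and the higher calls were 8.51% of the members, against 12.1% of all genes. The lower calls made up 17%, against 10.3% of all genes. The share called is near that of all genes and does not set the initiation factors apart. The median log2 difference was -0.23 over the members and -0.03 over all genes. Of the 47 differences 31 were negative (66%), near the 68.6% of all genes. The 35 genes not called include 7 with an unadjusted p under 0.05, for 19 such genes in all. Without the third CD27- CMP array, 14 genes were called, 5 higher and 9 lower. The share of all genes called without that array is not given here, so this count has no background.

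Between GMP and MEP, 16 of the 47 genes differed. Higher in GMP were Eif4e3, Eif4g3, Eif2ak3 and Eif1ad. Lower in GMP were Eif4ebp1, Eif2b1, Eif2b3, Eif2b4, Eif2d, Eif3d, Eif3m, Eif4b, Eif4enif1, Eif2ak1, Eif2s3x and Eif1b. The share called was 34%, against 22.9% of all genes. Higher calls made up 8.51%, against 11.5% of all genes, and lower calls 25.5%, against 11.3% of all genes. The median log2 difference was -0.33 over the members, against -0.04 over all genes. Of the 47 differences 34 were negative (72.3%), near the 72.6% of all genes. No test of these shares was made.

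The 2 populations sorted with CD27 gave few or no calls in these genes, as did the 2 sorted without it. Between CD27+ CMP and GMP, 0 of 47 genes were called by limma, 4 had an unadjusted p under 0.05, and 5.24% of all genes were called. The log2 differences ran from -0.47 to 0.51. With the replicate number as a block (the replicate block), 1 gene was called, Eif2ak3, which was lower in CD27+ CMP by -0.41 log2 (adjusted p = 0.043, against 0.28 without the block). Between CD27- CMP and MEP, 0 of 47 genes were called, 5 had an unadjusted p under 0.05, and only 0.033% of all genes were called, which are 6 genes. The differences there ran from -0.92 to 0.78. By the F-test of any difference among the 4 populations, 16 of 47 genes were called, against 26.8% of all genes. Without the third CD27- CMP array 18 of 47 were called, and the share of all genes without it is not given here.

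**Figure D1:**
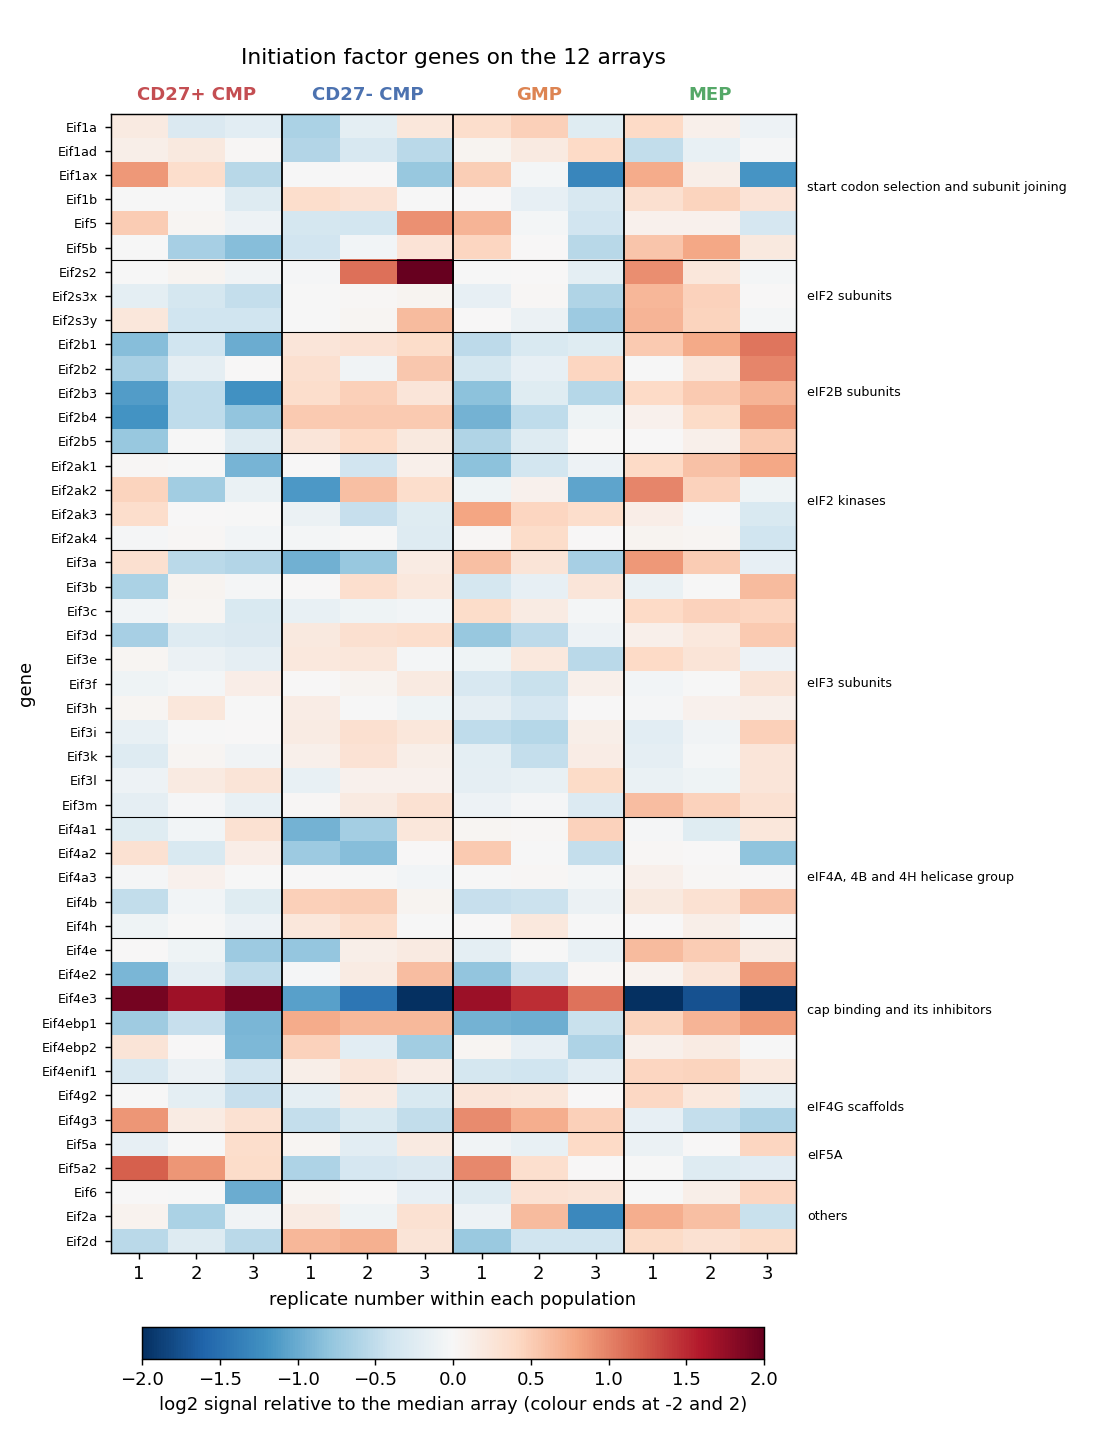
Log2 signal relative to the median array (colour scale, ending at -2 and 2) of the 47 initiation factor genes in rows, grouped by role, on the 12 arrays in columns, 3 per population. The 5 eIF2B rows are mostly below 0 in CD27+ CMP and GMP and mostly above 0 in CD27- CMP and MEP, and Eif4e3 runs the other way.

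Cap binding held the member with the largest difference. Eif4e3 encodes an atypical member of the eIF4E family of cap-binding proteins. Its values were 1.91, 1.69 and 1.91 on the CD27+ CMP arrays, against -1.09, -1.45 and -2.02 on the CD27- CMP arrays. They were 1.71, 1.48 and 1.09 on the GMP arrays, against -2.47, -1.74 and -2.69 on the MEP arrays. The 6 arrays of CD27+ cells all lay above the 6 arrays of CD27- cells. The difference was 3.36 ± 0.29 log2 (SE, n = 3 arrays each, adjusted p = 2.8e-05 by limma), or 10.2-fold, between CD27+ CMP and CD27- CMP. Between GMP and MEP it was 3.73 ± 0.29 log2 (adjusted p = 1.2e-05), or 13.2-fold. Its other probe set gave 2.98 and 3.61 log2 in the same comparisons, so both probe sets of the gene showed it.

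The other cap-binding genes showed no called difference. Eif4e, which encodes the main cap-binding factor, had values of 0.0044, -0.09 and -0.72 in CD27+ CMP, against -0.78, 0.12 and 0.19 in CD27- CMP. In GMP its values were -0.19, -0.0044 and -0.14, against 0.64, 0.51 and 0.18 in MEP. The CMP arrays overlapped, while the GMP arrays lay below the MEP arrays. The differences were -0.11 ± 0.27 log2 (adjusted p = 0.80) and -0.55 ± 0.27 log2 (adjusted p = 0.20). Another probe set of Eif4e gave -0.46 log2 in CD27+ against CD27- CMP (adjusted p = 0.010 over all probe sets) and -0.33 log2 in GMP against MEP (adjusted p = 0.047), so the call depends on the probe set.

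Eif4e2, which encodes a cap-binding homologue known as a translational repressor, had values of -0.91, -0.18 and -0.50 in CD27+ CMP, against -0.025, 0.17 and 0.62 in CD27- CMP. Its GMP values were -0.78, -0.41 and 0.025, against 0.068, 0.24 and 0.85 in MEP. The arrays did not overlap in either comparison, and the differences of -0.79 ± 0.29 log2 (adjusted p = 0.095) and -0.77 ± 0.29 log2 (adjusted p = 0.098) missed the threshold. With the replicate block both were called (adjusted p = 0.012 and 0.013), although the replicate numbers were taken to pair samples only in the second comparison. A further probe set gave -0.82 log2 between the CMP fractions (adjusted p = 0.031 over all probe sets). Another gave -0.37 log2 between GMP and MEP (adjusted p = 0.025 over all probe sets).

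Eif4ebp1 encodes 4E-BP1, which mTORC1 switches off by phosphorylation. Its values were -0.71, -0.46 and -0.91 in CD27+ CMP, against 0.74, 0.65 and 0.64 in CD27- CMP. They were -0.95, -0.97 and -0.44 in GMP, against 0.44, 0.68 and 0.83 in MEP. All arrays of CD27+ cells lay below all arrays of CD27- cells. The log2 difference was -1.37 ± 0.16 (adjusted p = 0.00023; 2.58-fold lower in CD27+ CMP) and -1.44 ± 0.16 (adjusted p = 0.00015; 2.71-fold lower in GMP). A second probe set gave -1.42 and -1.38 log2, and the remaining one, which varied little, gave -0.18 and -0.04 log2.

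The related inhibitor gene Eif4ebp2 had values of 0.26, 0.010 and -0.90 in CD27+ CMP, against 0.46, -0.20 and -0.70 in CD27- CMP. It had 0.040, -0.16 and -0.61 in GMP, against 0.11, 0.17 and -0.01 in MEP. The groups overlapped in both comparisons, with differences of -0.06 ± 0.35 log2 (adjusted p = 0.91) and -0.33 ± 0.35 log2 (adjusted p = 0.49). Another probe set of Eif4ebp2 did not overlap in either comparison. It gave -0.38 log2 (adjusted p = 0.11 over all probe sets) and -0.47 log2 (adjusted p = 0.045). The call of Eif4ebp2 between GMP and MEP thus depends on the probe set, and its remaining probe sets were not called. Eif4enif1 encodes 4E-T, which binds eIF4E, carries it into the nucleus and sits in P bodies. Its values were -0.32, -0.12 and -0.39 in CD27+ CMP, against 0.12, 0.25 and 0.15 in CD27- CMP. In GMP they were -0.35, -0.40 and -0.22, against 0.43, 0.44 and 0.20 in MEP. The arrays of CD27+ cells were all below those of CD27- cells, by -0.45 ± 0.09 log2 (adjusted p = 0.0044) and -0.68 ± 0.09 log2 (adjusted p = 0.00032).

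Of the eIF4G scaffolds, Eif4g3 was higher in both populations sorted with CD27. Its values were 0.88, 0.16 and 0.31 in CD27+ CMP, against -0.48, -0.30 and -0.50 in CD27- CMP. They were 0.95, 0.72 and 0.47 in GMP, against -0.16, -0.48 and -0.62 in MEP. The arrays overlapped in neither comparison, and the differences were 0.87 ± 0.20 log2 (adjusted p = 0.011) and 1.13 ± 0.20 log2 (adjusted p = 0.0026). Its other 3 probe sets varied little, with log2 differences between -0.08 and 0.06. Eif4g2, a relative that lacks the part which binds eIF4E, differed by -0.12 ± 0.18 log2 (adjusted p = 0.70) and 0.014 ± 0.18 log2 (adjusted p = 0.95).

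All 5 genes of the exchange factor eIF2B had negative differences in both comparisons, and 3 were called in each. Eif2b1 encodes the alpha subunit, through which phosphorylated eIF2 inhibits the complex. It had values of -0.86, -0.40 and -0.998 in CD27+ CMP, against 0.24, 0.29 and 0.37 in CD27- CMP. It had -0.53, -0.30 and -0.24 in GMP, against 0.53, 0.76 and 1.07 in MEP. The arrays of CD27+ cells lay below those of CD27- cells throughout, by -1.05 ± 0.17 log2 (adjusted p = 0.0017) and -1.14 ± 0.17 log2 (adjusted p = 0.00096).

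Eif2b3, the gamma subunit gene, had values of -1.12, -0.50 and -1.21 in CD27+ CMP, against 0.36, 0.47 and 0.24 in CD27- CMP. Its values were -0.82, -0.24 and -0.57 in GMP, against 0.39, 0.52 and 0.67 in MEP. Again the groups did not overlap, and the differences were -1.30 ± 0.20 log2 (adjusted p = 0.0011) and -1.07 ± 0.20 log2 (adjusted p = 0.0035). Eif2b4, the delta subunit gene, had -1.20, -0.50 and -0.78 in CD27+ CMP, against 0.52, 0.53 and 0.52 in CD27- CMP. In GMP it had -0.94, -0.51 and -0.087, against 0.087, 0.38 and 0.86 in MEP. The GMP and MEP arrays came close to each other without overlapping. The differences were -1.35 ± 0.26 log2 (adjusted p = 0.0044) and -0.95 ± 0.26 log2 (adjusted p = 0.026), and the second lost its call under 5 of 13 alternatives, with an adjusted p of up to 0.0953.

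The remaining subunits missed the threshold. Eif2b5, which encodes the catalytic epsilon subunit, had values of -0.76, -0.011 and -0.26 in CD27+ CMP, against 0.24, 0.41 and 0.20 in CD27- CMP, and the groups did not overlap. Its differences were -0.62 ± 0.22 log2 (adjusted p = 0.077) and -0.49 ± 0.22 log2 (adjusted p = 0.16). Eif2b2, the beta subunit gene, differed by -0.55 ± 0.31 log2 (adjusted p = 0.29) and -0.43 ± 0.31 log2 (adjusted p = 0.35), with arrays that overlapped. Over the 5 subunits the median difference was -1.05 log2 in CD27+ against CD27- CMP and -0.95 log2 in GMP against MEP.

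**Figure D2:**
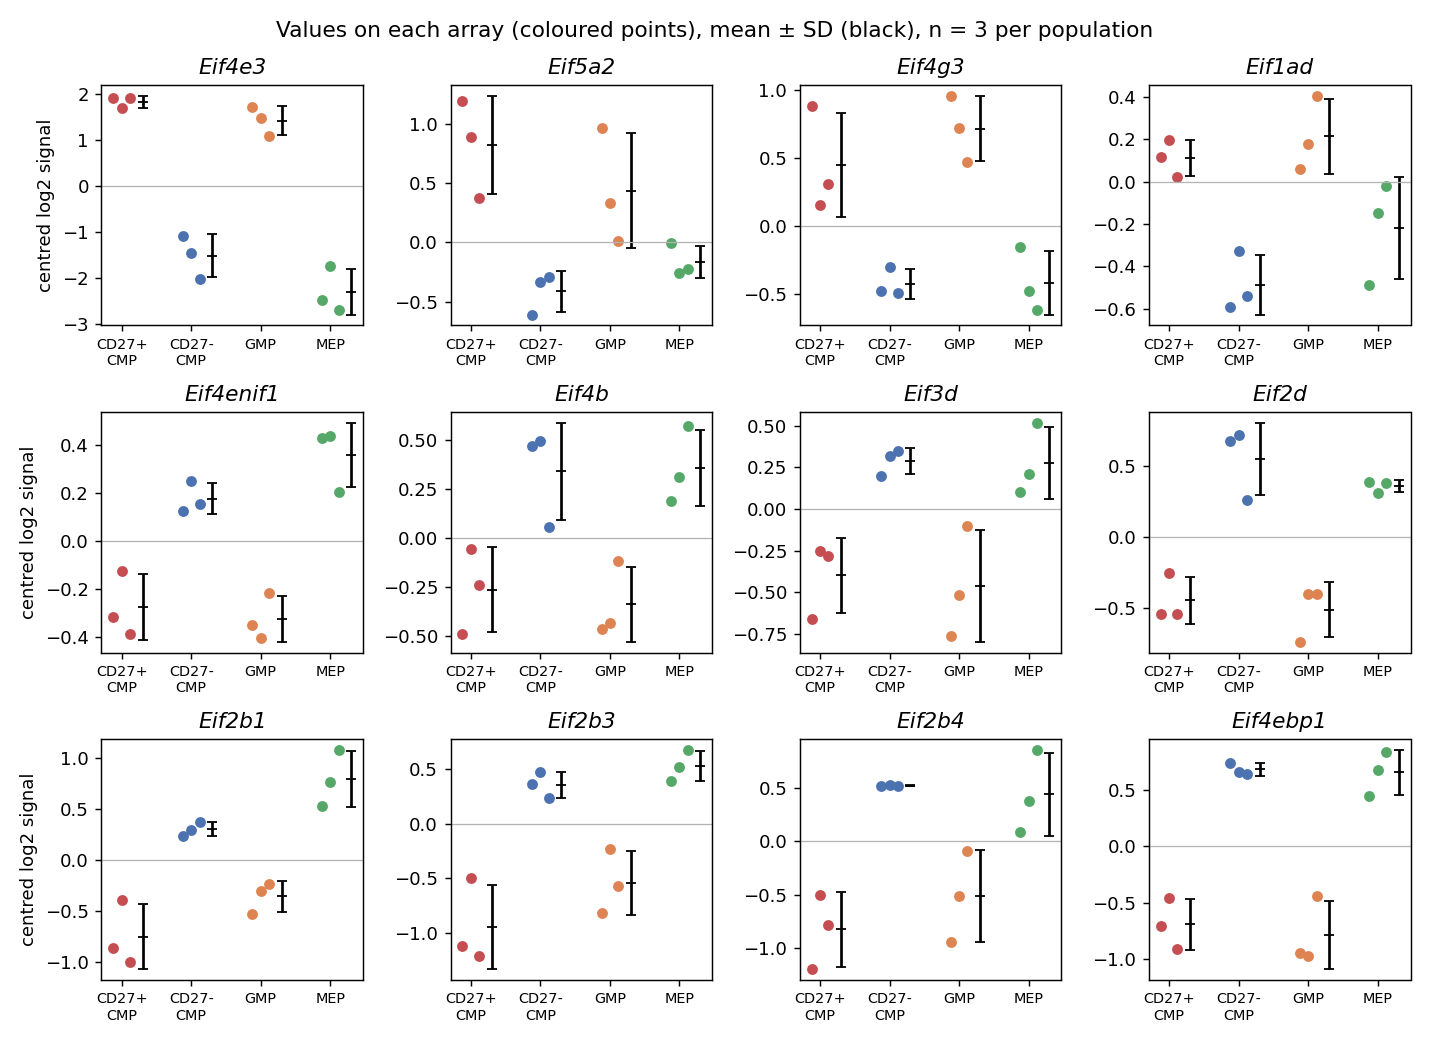
Centred log2 signal of the 12 genes called between CD27+ and CD27- CMP, with 1 coloured point per array and the mean ± SD in black (n = 3 per population), and a vertical axis of its own for each gene. In each panel the CD27+ CMP points are apart from the CD27- CMP points and the GMP points are apart from the MEP points, including those of Eif5a2, which was not called between GMP and MEP.

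The eIF2 subunit genes Eif2s2 and Eif2s3x had negative differences in both comparisons, and Eif2s3x was called in GMP against MEP. Eif2s3x, on the X chromosome, encodes the gamma subunit that holds GTP and the initiator tRNA. It had values of -0.19, -0.35 and -0.48 in CD27+ CMP, against -0.0036, 0.023 and 0.061 in CD27- CMP. It had -0.16, 0.022 and -0.61 in GMP, against 0.66, 0.46 and 0.0036 in MEP. The CMP fractions did not overlap, while the GMP array at 0.022 lay above the lowest MEP array. The difference was -0.37 ± 0.19 log2 (adjusted p = 0.24) between CMP fractions and -0.62 ± 0.19 log2 (adjusted p = 0.043) between GMP and MEP, and the second kept its call in 6 of 13 alternatives. Its other 2 probe sets gave -0.17 and -0.20 log2 between GMP and MEP, neither called, so the call rests on 1 of 3 probe sets.

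Eif2s3y, the copy on the Y chromosome, had values of 0.22, -0.39 and -0.40 in CD27+ CMP, against -0.00064, 0.040 and 0.63 in CD27- CMP. On the GMP arrays it read 0.00064, -0.11 and -0.72, against 0.69, 0.45 and -0.034 in MEP. The mice were female, and the source of these values for a gene on the Y chromosome was not tested. The Eif2s3y differences of -0.41 and -0.65 log2 lay near those of Eif2s3x, -0.37 and -0.62 log2, for these probe sets only. The other Eif2s3x probe sets gave -0.08 and 0.04 log2 between CMP fractions, and -0.17 and -0.20 log2 between GMP and MEP. The other Eif2s3y probe set, which varied little, gave -0.04 and -0.06 log2 in the 2 comparisons. Neither Eif2s3y difference was called (adjusted p = 0.38 and 0.15). Whether its probe set reads RNA of Eif2s3x was not tested. Eif2s2, the beta subunit gene, had values of -0.024, 1.09 and 2.06 in CD27- CMP, the highest of them on the array that stood apart, and its difference of -1.05 ± 0.45 log2 was not called (adjusted p = 0.15).

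The 4 eIF2 kinases had differences of both signs. Eif2ak1 encodes HRI, the kinase that responds to a lack of haem. Its values were 0.029, -0.0057 and -0.94 in CD27+ CMP, against 0.0057, -0.39 and 0.11 in CD27- CMP. They were -0.81, -0.37 and -0.095 in GMP, against 0.40, 0.59 and 0.77 in MEP. The CMP fractions overlapped and GMP lay below MEP. The difference was -0.21 ± 0.28 log2 (adjusted p = 0.65) between CMP fractions and -1.01 ± 0.28 log2 (adjusted p = 0.029; 2.02-fold lower) in GMP against MEP. The second call held in 8 of 13 alternatives and was lost with the replicate block (adjusted p = 0.065). The other 4 probe sets of Eif2ak1 gave differences between -0.69 and -0.01 log2 in GMP against MEP, none of them called. The test of whether the 2 differences of Eif2ak1 are unequal gave 0.80 ± 0.40 log2 (adjusted p = 0.70).

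Eif2ak3 encodes PERK, the kinase of the endoplasmic reticulum. It had values of 0.35, 0.00085 and -0.00085 in CD27+ CMP, against -0.11, -0.46 and -0.24 in CD27- CMP. In GMP it had 0.79, 0.42 and 0.35, against 0.14, -0.022 and -0.31 in MEP. Neither comparison overlapped, and the differences were 0.38 ± 0.16 log2 (adjusted p = 0.14) and 0.59 ± 0.16 log2 (adjusted p = 0.028). The second call held in 9 of 13 alternatives. Its other 2 probe sets varied less and gave 0.12 and -0.016 log2 between GMP and MEP, neither called.

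Eif2ak2 encodes PKR, which senses double-stranded RNA. It had values of 0.45, -0.69 and -0.13 in CD27+ CMP, against -1.14, 0.61 and 0.35 in CD27- CMP. The GMP arrays gave -0.083, 0.083 and -1.05, against 0.98, 0.46 and -0.085 in MEP. The groups overlapped in both comparisons (adjusted p = 0.94 and 0.31). Eif2ak4, the gene of GCN2, which senses a lack of amino acids, had values of -0.025, 0.019 and -0.057 in CD27+ CMP, against -0.043, -0.003 and -0.26 in CD27- CMP. The GMP arrays gave 0.029, 0.37 and 0.003, against 0.06, 0.041 and -0.40 in MEP. These groups overlapped as well, with differences of 0.08 ± 0.14 log2 (adjusted p = 0.72) and 0.23 ± 0.14 log2 (adjusted p = 0.28).

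Among 11 genes of eIF3, the complex that joins the small ribosomal subunit to the mRNA, Eif3d was called in both comparisons. Eif3d encodes a subunit that can itself bind the cap. Its values were -0.66, -0.25 and -0.28 in CD27+ CMP, against 0.20, 0.32 and 0.35 in CD27- CMP. They were -0.76, -0.52 and -0.10 in GMP, against 0.10, 0.21 and 0.52 in MEP. All arrays of CD27+ cells lay below those of CD27- cells, by -0.68 ± 0.18 log2 (adjusted p = 0.022) and -0.74 ± 0.18 log2 (adjusted p = 0.015), each call holding in 10 of 13 alternatives. Its second probe set varied little and gave -0.02 log2 in both comparisons.

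Eif3m was called between GMP and MEP alone. Its values were -0.11, -0.03 and -0.28 in GMP, against 0.62, 0.45 and 0.30 in MEP, and the difference was -0.59 ± 0.10 log2 (adjusted p = 0.0018). Between CD27+ and CD27- CMP it was -0.29 ± 0.10 log2 (adjusted p = 0.070). Its other probe set gave -0.32 log2 between GMP and MEP and was not called (adjusted p = 0.34 over all probe sets). The differences of the other 9 eIF3 genes (Eif3a, Eif3b, Eif3c, Eif3e, Eif3f, Eif3h, Eif3i, Eif3k and Eif3l) ran from -0.39 to 0.25 log2 between CMP fractions and from -0.38 to 0.01 log2 between GMP and MEP. With the replicate block Eif3f was called between GMP and MEP, at -0.28 log2 (adjusted p = 0.030). Eif3c was the member nearest to a call between CD27- CMP and MEP, with -0.15, -0.08 and -0.048 in CD27- CMP, against 0.39, 0.46 and 0.43 in MEP. The difference was -0.52 ± 0.11 log2 (adjusted p = 0.24, unadjusted p = 0.00086). Its other 3 probe sets gave 0.16, -0.11 and 0.15 log2, 2 of them of the opposite sign. Eif3c was named after its values were seen.

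In the helicase group, Eif4b, the cofactor of eIF4A, was lower in CD27+ CMP and in GMP. Its values were -0.49, -0.056 and -0.24 in CD27+ CMP, against 0.47, 0.50 and 0.056 in CD27- CMP. They were -0.46, -0.43 and -0.12 in GMP, against 0.19, 0.31 and 0.57 in MEP. The groups did not overlap, and the differences were -0.60 ± 0.17 log2 (adjusted p = 0.027) and -0.69 ± 0.17 log2 (adjusted p = 0.013). The first call held in 7 of 13 alternatives, the second in 10, and 2 further probe sets gave smaller differences of the same sign that were not called. The helicase genes Eif4a1 and Eif4a2 differed by 0.47 ± 0.29 and 0.57 ± 0.34 log2 between CMP fractions (adjusted p = 0.33 and 0.32). Eif4a3, a helicase of the exon junction complex, varied little, with 12 values between -0.051 and 0.10 log2.

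Start codon selection and subunit joining gave 6 genes with mixed signs. Eif1ad, which encodes a nuclear protein with an eIF1A-like domain, had values of 0.12, 0.19 and 0.022 in CD27+ CMP, against -0.59, -0.33 and -0.54 in CD27- CMP. It had 0.058, 0.18 and 0.40 in GMP, against -0.49, -0.15 and -0.022 in MEP. The groups did not overlap, and the differences were 0.60 ± 0.13 log2 (adjusted p = 0.0093) and 0.43 ± 0.13 log2 (adjusted p = 0.044). Its second probe set gave the opposite sign, -0.50 and -0.40 log2, and with the mean of both the differences were 0.05 log2 (adjusted p = 0.83) and 0.02 log2 (adjusted p = 0.93). The direction of Eif1ad is therefore not settled by these arrays.

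Eif1b, a paralogue of the start codon factor eIF1, had values of 0.001, -0.16 and -0.31 in GMP, against 0.32, 0.45 and 0.27 in MEP. All GMP arrays lay below the MEP arrays, by -0.51 ± 0.12 log2 (adjusted p = 0.011), while the difference between CMP fractions was -0.30 ± 0.12 log2 (adjusted p = 0.11). Eif1a, Eif1ax, Eif5 and Eif5b were not called in either comparison, with differences from -0.45 to 0.48 log2 between CMP fractions and from -0.54 to 0.14 log2 between GMP and MEP. Eif1ax varied more within populations than between them, with 0.50, -0.044 and -1.30 in GMP, against 0.74, 0.12 and -1.19 in MEP.

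Eif5a2, a tissue-restricted relative of the hypusine-bearing factor eIF5A, was the only member called between CMP fractions and not between GMP and MEP. It had values of 1.20, 0.89 and 0.37 in CD27+ CMP, against -0.61, -0.34 and -0.30 in CD27- CMP. In GMP it had 0.96, 0.33 and 0.0076, against -0.0076, -0.26 and -0.22 in MEP. The arrays overlapped in neither comparison. The differences were 1.23 ± 0.26 log2 (adjusted p = 0.0072) and 0.60 ± 0.26 log2 (adjusted p = 0.15), and the test of their inequality gave 0.64 ± 0.37 log2 (adjusted p = 0.85). The second probe set of Eif5a2 varied little, with -0.01 and -0.14 log2. Eif5a itself differed by 0.06 ± 0.20 and -0.05 ± 0.20 log2 (adjusted p = 0.85 in both).

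Eif2d, a factor that can deliver initiator tRNA without eIF2 and helps to recycle ribosomes, had values of -0.54, -0.26 and -0.54 in CD27+ CMP, against 0.67, 0.71 and 0.26 in CD27- CMP. It had -0.74, -0.40 and -0.40 in GMP, against 0.38, 0.31 and 0.38 in MEP. All arrays of CD27+ cells lay below those of CD27- cells, by -0.99 ± 0.14 log2 (adjusted p = 0.00063) and -0.87 ± 0.14 log2 (adjusted p = 0.0014). A second of its 6 probe sets gave -0.92 and -0.85 log2, both called, and the other 4 had negative differences that were not called. Eif2a, which despite its name is no subunit of eIF2, and Eif6, which keeps the large ribosomal subunit from joining early, were not called.

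Across the gate the 2 comparisons gave similar values gene by gene, although they have no array in common. Of the 17 genes called in either comparison, 11 were called in both, all with the same sign. They make up 11 of the 12 genes called between CMP fractions and 11 of the 16 called between GMP and MEP. Over all genes, 3121 of the 5119 called in either were called in both. The Pearson correlation of the differences over the 47 genes was 0.924 and the Spearman correlation 0.837, and without Eif4e3 they were 0.851 and 0.826. Over all 18193 genes the same values were 0.910 and 0.790. These are descriptions across genes, which are not independent replicates, and both differences come from 1 fit. The test of whether a gene's difference between CMP fractions is unequal to its difference between GMP and MEP called 0 of 47 genes by limma, 0 at an unadjusted p under 0.05, and 375 of all 18193 genes.

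**Figure D3:**
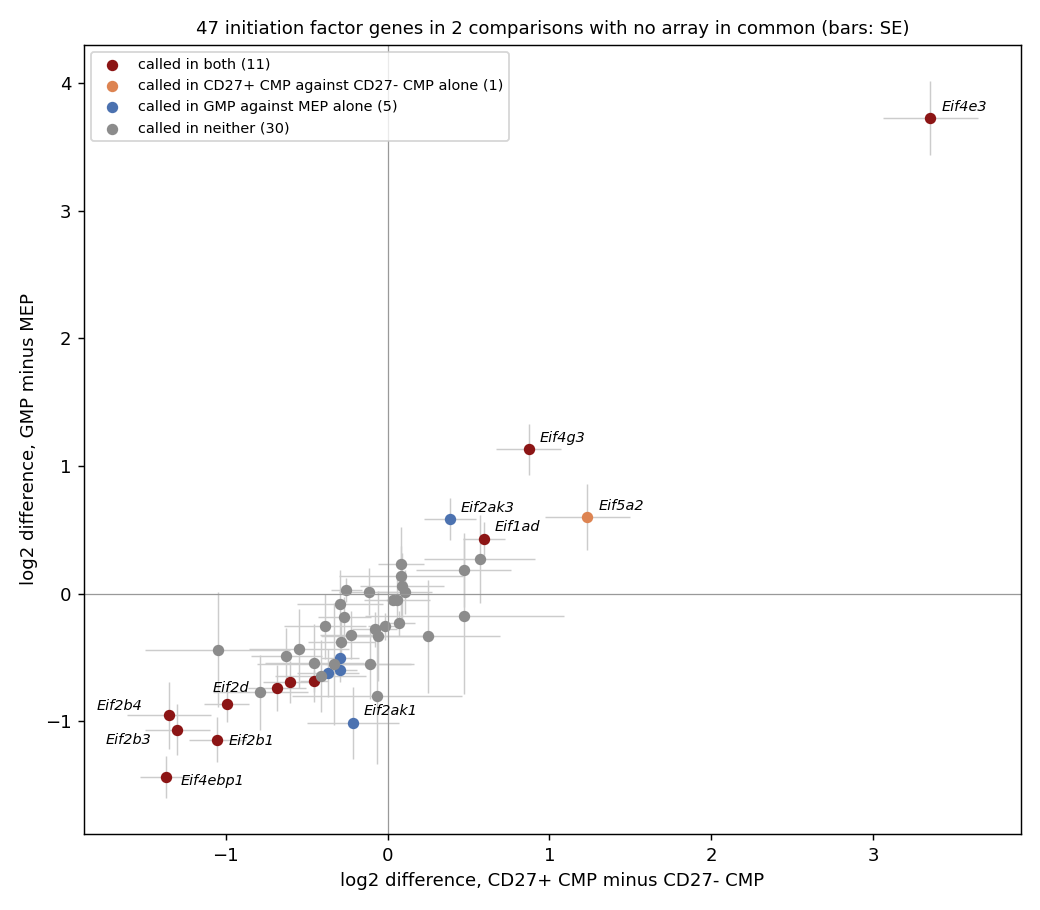
Log2 difference of CD27+ CMP minus CD27- CMP (horizontal axis) against GMP minus MEP (vertical axis) for the 47 initiation factor genes, 1 point per gene with SE bars, coloured by the comparison in which the gene was called. The 11 genes called in both lie in the lower left and upper right, with Eif4e3 far from the rest at 3.36 and 3.73.

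Arrays of the compared populations did not overlap for 19 of 47 genes (40.4%) in CD27+ against CD27- CMP, against 33.6% of all genes. In 5 of these the CD27+ CMP arrays were above and in 14 they were below. In GMP against MEP the same held for 20 of 47 genes (42.6%), against 40.4% of all genes, with GMP above in 5 and below in 15. These shares are near the background. Counted by probe set, 18 of 133 were called between CMP fractions, 5 higher and 13 lower, against 14.1% of all 45037 probe sets. These belong to 15 genes, which include Eif4e, Eif4e2 and Eif3i through a probe set other than the one with the largest variation. Between GMP and MEP the count was 20 of 133, 4 higher and 16 lower, against 14.8% of all probe sets. None of the 47 genes had probe sets called in opposite directions in either comparison.

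Genes around initiation were read from 4 further lists, whose medians compare with -0.03 and -0.04 log2 over all genes in the same comparisons. Of all genes, 22.4% were called between CMP fractions (12.1% higher and 10.3% lower). Between GMP and MEP 22.9% of all genes were called (11.5% higher and 11.3% lower). The counts of each list are to be read beside these shares, and no list was tested against them. A difference named from a list had an adjusted p under 0.05 unless its p is given as higher. Of 14 measured elongation and termination factors, 2 were higher and 2 lower in each comparison, with a median of -0.38 log2 between CMP fractions and -0.58 log2 between GMP and MEP. Gspt2, a gene of the release factor eRF3, averaged 1.45 ± 0.20 in CD27+ CMP and -1.52 ± 0.41 in CD27- CMP (SD, n = 3 each), a difference of 2.97 log2 (adjusted p = 3.7e-06). In GMP it averaged 2.65 ± 0.18, against -1.89 ± 0.07 in MEP, a difference of 4.54 log2 (adjusted p = 1.9e-07). Eef2k, the kinase that inhibits elongation factor eEF2, was higher in CD27+ CMP by 1.08 log2 (adjusted p = 0.00084), and Pelo, a ribosome rescue factor, was higher in GMP by 0.50 log2 (adjusted p = 0.012). Eef1e1, of the multisynthetase complex, was lower by -0.98 and -1.23 log2, and Tsfm, the mitochondrial elongation factor Ts, was lower by -0.92 and -0.71 log2, all 4 of them called.

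Of 23 measured genes of mTORC1, MNK and S6 kinase signalling, 3 were higher and 2 lower between CMP fractions, with a median of -0.01 log2. Between GMP and MEP 4 were higher and 5 lower, with a median of -0.15 log2. The sestrin genes Sesn1 and Sesn3, whose products restrain mTORC1, were higher in CD27+ CMP by 2.50 and 2.42 log2, while Sesn2 was lower by -1.05 log2 and the arginine sensor gene Castor1 by -0.33 log2. In GMP, Deptor, an inhibitor of mTOR, was higher by 1.92 log2 and Sesn3 by 1.51 log2, and the subunit genes Mlst8 and Rptor were lower by -1.31 and -1.18 log2. Mtor itself differed by 0.45 ± 0.22 log2 (adjusted p = 0.20) and 0.52 ± 0.22 log2 (adjusted p = 0.13). Mknk2, which encodes a kinase of eIF4E, averaged -0.11 ± 0.16 in CD27+ CMP and 0.19 ± 0.24 in CD27- CMP (adjusted p = 0.32). It averaged -0.73 ± 0.27 in GMP and 0.42 ± 0.27 in MEP, a difference of -1.15 ± 0.19 log2 (adjusted p = 0.0014). Without the third CD27- CMP array 8 of these genes were called between CMP fractions. Between GMP and MEP 5, 4 and 5 were called without the second GMP array, the second MEP array and the third MEP array. The shares of all genes called without these arrays are not given here.

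All 24 listed genes of the integrated stress response were measured. Of them, 2 were higher and 5 lower between CMP fractions, with a median of -0.20 log2, and 4 were higher and 5 lower between GMP and MEP, with a median of -0.18 log2. Atf4, the transcription factor whose translation rises when eIF2 is phosphorylated, differed by -0.37 ± 0.51 log2 (adjusted p = 0.66) and -0.09 ± 0.51 log2 (adjusted p = 0.89). Ddit3, its target CHOP, averaged -0.60 ± 0.17 in CD27+ CMP and 0.70 ± 0.28 in CD27- CMP, a difference of -1.31 log2 (adjusted p = 0.0083). In GMP it averaged -1.42 ± 0.65, against 0.49 ± 0.07 in MEP, a difference of -1.91 log2 (adjusted p = 0.00083). Asns, the asparagine synthetase gene, was lower by -4.14 log2 in CD27+ CMP and by -3.48 log2 in GMP. Grb10, a receptor adaptor, was lower by -6.01 and -2.40 log2. Vldlr, a lipoprotein receptor gene, was higher by 3.96 log2 in CD27+ CMP, and Cebpb, a transcription factor of the granulocyte and monocyte lines, by 2.12 log2. In GMP Cebpb was higher by 2.87 log2 and Dnajc3, an inhibitor of eIF2 kinases, by 1.86 log2. The list therefore moved in both directions.

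Of 19 measured partners at the poly(A) tail and the initiation complex, 4 were higher and 3 lower between CMP fractions, with a median of -0.15 log2. Between GMP and MEP 1 was higher and 3 were lower, with a median of -0.21 log2. Cyfip2, of the family of eIF4E-binding repressors, was higher by 1.90 log2 in CD27+ CMP and by 1.69 log2 in GMP. Paip1, a partner of the poly(A)-binding protein, was higher by 1.75 log2 in CD27+ CMP. Abcf1, which binds eIF2 and ribosomes, was lower by -0.99 and -1.06 log2, and Pabpc4 by -0.86 and -0.87 log2. Pabpc1, the main cytoplasmic poly(A)-binding protein gene, differed by -0.76 ± 0.47 log2 (adjusted p = 0.33) and -0.39 ± 0.47 log2 (adjusted p = 0.54).

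**Figure D4:**
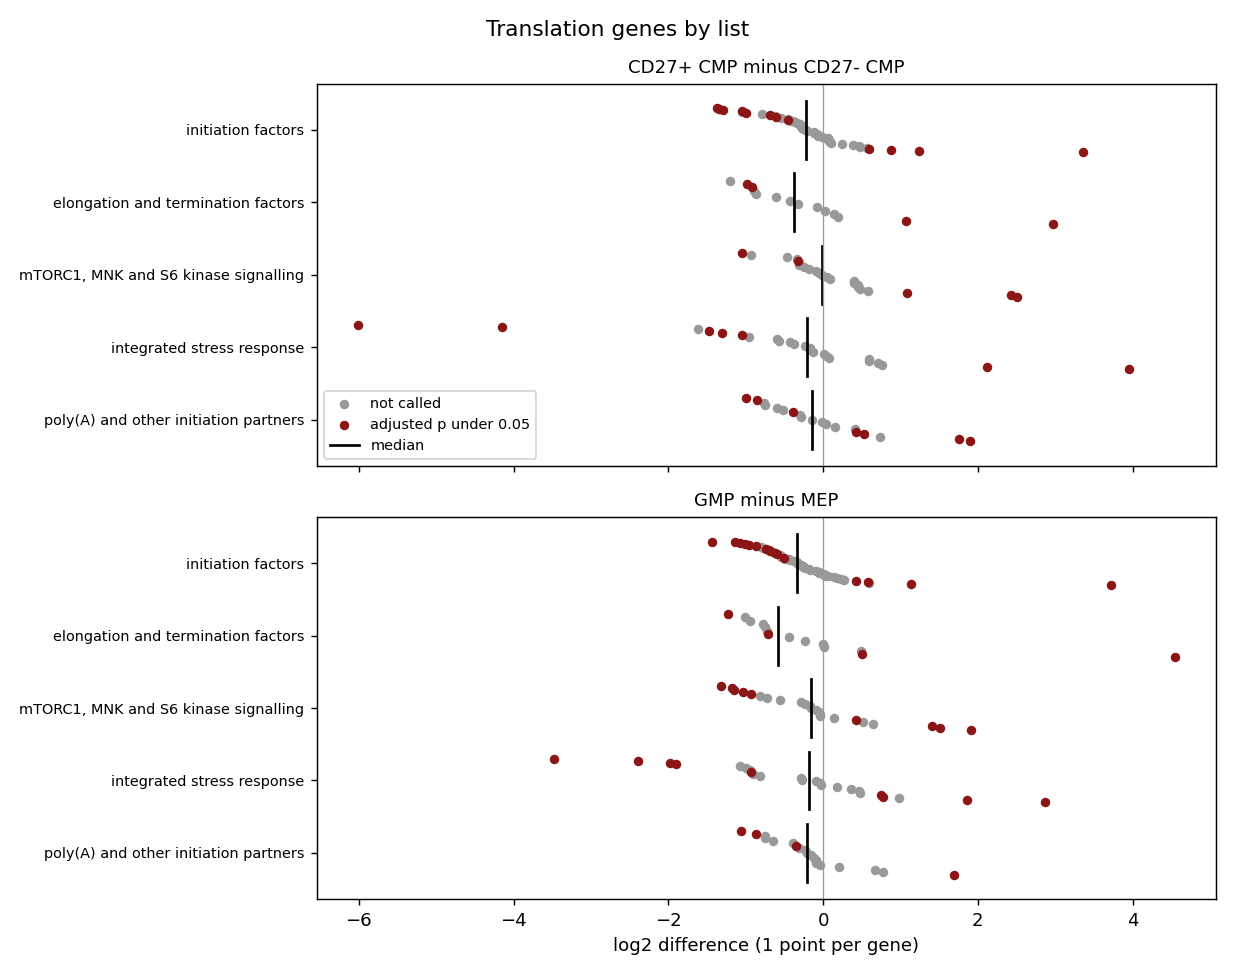
Log2 difference per gene (horizontal axis) in CD27+ CMP minus CD27- CMP (upper panel) and GMP minus MEP (lower panel) for the 47 initiation factors and 4 lists of related genes, with dark red points for an adjusted p under 0.05 and a black line at each list's median. The medians lie between -0.38 and -0.01 in the upper panel and between -0.58 and -0.15 in the lower panel, and every list has called genes on both sides of 0.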

How the data were processed

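Each of the 12 arrays has a deposited column with a log2 value for each of 45037 probe sets. The submitters' processing notes name GCRMA as the authors' tool. Neither its version nor the logarithm's base was given in the sources used, and log2 was assumed since that is the scale GCRMA returns. The median of every deposited probe set over the 12 arrays lies within 5e-07 of 0, so absolute signal and a filter on dim probe sets were not available. GCRMA draws weak signals toward a background, which makes the size of folds near background uncertain.

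The array annotation gave 34945 probe sets 1 symbol, 932 several and 9160 none. A gene was read from its probe set with the largest SD over the 12 arrays. Left out were 6 probe sets that name an initiation factor together with another gene, 3 of them for Eif3j1 and Eif3j2 and 1 for Eif4ebp3 and Ankhd1. All 47 members were found by gene number in RefSeq's table of GRCm38.p6, which was used for names, and 0 symbols differed.

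Tests used limma 3.58.1 (R 4.3.3) with a mean for each population and all 12 arrays in 1 fit (8 residual and 0.992 prior degrees of freedom) and two-sided tests. P-values were adjusted by Benjamini-Hochberg over 18193 genes (over 45037 probe sets where stated), with a threshold of 0.05. Same-numbered replicates deviated together, with a correlation over 0.1, in 3 of 3 pairs of GMP with MEP (0.27 to 0.58) and of CD27+ CMP with GMP (0.23 to 0.57). This held in 1 of 3 pairs between CMP fractions (-0.27 to 0.14) and 0 of 3 of CD27- CMP with MEP (-0.30 to 0.0032). The numbers were therefore taken to pair the samples in the first 2 comparisons only, from the data and not from the labels. The fit was tested on simulated data. Precision is limited by the number of arrays: between CMP fractions the median SE was 0.204 log2 over the members and 0.0904 log2 over all probe sets. The member probe sets were chosen for the largest variation, so these 2 values do not compare like with like. Alternatives were quantile normalization, centring arrays on their median, a range filter of 0.5 log2, the mean of a gene's probe sets, a replicate block, array weights (the gene-by-gene method, as the default did not converge), a fit of the 2 populations alone, and each array left out.

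Values per array are given for up to 12 called members with the largest difference in CD27+ against CD27- CMP and in GMP against MEP, and for the eIF2 kinase, cap-binding, 4E-binding and Eif2s3 genes whatever their result. From each further list the 2 genes with the largest called difference in each direction may be named, and Atf4, Ddit3, Mtor, Mknk2 and Pabpc1. The other members were described by role. The members and all lists were chosen with earlier results of these data known. Gcn1l1 was matched as Gcn1, Sesn2 stands in 2 lists, and Eef1g, Rps6kb1, Cyfip1 and Igf2bp2 had no probe set of their own symbol here.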

Additional observations from a re-analysis of the deposited data

How the results depend on the processing

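Counts of initiation factor genes called were 12 (CD27+ against CD27- CMP), 16 (GMP against MEP), 0 (CD27+ CMP against GMP), 0 (CD27- CMP against MEP) and 16 (any difference). With array weights they were 20, 25, 1, 5 and 31, under weights from 0.184 for the third CD27- CMP array to 11.1 for the second MEP array. The related lists then gave 11 elongation and termination factors between GMP and MEP, 10 (CMP fractions) and 14 (GMP against MEP) mTORC1 genes, 14 and 17 stress response genes in the same comparisons, and 9 poly(A) partners between GMP and MEP. The range filter gave 7 elongation factors and 12 stress response genes between CMP fractions, the mean of probe sets 7 elongation factors, and the 2 populations alone 2 mTORC1 genes. The share of all genes called under each alternative is not given here. Counts under the alternatives therefore cannot show whether the initiation factors or the lists differ from other genes. The cause of these shifts was not tested. With the replicate block the counts were 17, 17, 1, 0 and 19. In the 2 comparisons where the numbers pair the samples it changed no call of a member other than those of Eif2ak1, Eif3f and Eif4e2 (GMP against MEP) and Eif2ak3 (CD27+ CMP against GMP). With each array left out, counts ran over 10 to 14, 11 to 17, 0 to 0, 0 to 0 and 15 to 19. For the lists, CMP fractions and then GMP against MEP, they ran over 4 to 4 and 4 to 6 (elongation), 4 to 8 and 4 to 10 (mTORC1), 7 to 9 and 7 to 10 (stress response), and 7 to 7 and 4 to 5 (poly(A)). Of 43 differences of members that were followed through the alternatives, 0 reversed. The remaining differences given above were not followed in this way. Under all 13 alternatives Eif4e3, Eif4ebp1, Eif2b1, Eif2b3, Eif2d, Eif4g3 and Eif4enif1 were called in both comparisons, Eif2b4 and Eif5a2 in CD27+ against CD27- CMP, and Eif3m and Eif1b in GMP against MEP.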

Other observations

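Some initiation factor genes were lowest or highest on the same replicate number in every population. The third replicate was the lowest of 3 in all 4 populations for 7 of the 47 genes (Eif1ax, Eif1b, Eif2ak4, Eif3e, Eif4ebp2, Eif4g2 and Eif4h) and the highest in all 4 for 5 (Eif2b2, Eif3f, Eif3l, Eif4a1 and Eif5a). The first replicate was the lowest in all 4 for 4 genes (Eif3b, Eif3d, Eif3l and Eif4e2) and the highest for 1 (Eif2ak3), and the second the lowest for 0 and the highest for 1 (Eif4h). Of these, Eif3d was called in both comparisons across the CD27 gate, and Eif1b and Eif2ak3 in GMP against MEP. Eif1ax read -0.56, -0.76, -1.30 and -1.19 on the third array of CD27+ CMP, CD27- CMP, GMP and MEP, while its first and second arrays ran from -0.044 to 0.86. The labels do not say what the replicate numbers share, and no test of this order was made. The order was counted in the members alone, so it cannot be read as particular to the initiation factors.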
